A study of Homo sapiens with 8 samples.

Results

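The transcripts described here encode the subunits of the mitochondrial respiratory chain, including ATP synthase, and come from both the mitochondrial and the nuclear genome. Members were chosen by symbol alone from the deposited expression table and number 90 of 17649 genes. No measured value entered the rule, although earlier results of these data were known when it was set. They are the 13 mRNAs of the mitochondrial genome, 75 nuclear-encoded subunits, 1 readthrough transcript (ATP5MF-PTCD1) and 1 pseudogene (ATP5PBP5). By complex, there are 7 mitochondrial and 36 nuclear subunits of complex I, 4 nuclear subunits of complex II, 1 mitochondrial and 9 nuclear subunits of complex III, 3 mitochondrial and 11 nuclear subunits of complex IV, and 2 mitochondrial and 15 nuclear subunits of complex V. NDUFA4, which was named as a complex I gene, is counted with complex IV, where it is now placed.

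MDA-MB-231, an established human breast cancer cell line labelled as estrogen receptor negative, was profiled by RNA-Seq in 4 control libraries and 4 libraries of cells exposed for 48 hours to 1 μM carboxymethyllysine (CML), an advanced glycation end product that forms when sugars react with lysine. Both groups were kept in low-glucose medium, and the control cells received PBS. The comparison asked which transcripts respond to CML in the absence of high glucose. The sources used here do not say whether the 4 libraries of a group came from separate cultures, so the P values measure the spread between these libraries, which may be technical.

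The values are CPM, the reads of a gene relative to the scaled size of its library. For its RNA-Seq data the study describes TMM normalization factors computed with edgeR. The values of a library did not add up to a fixed total, with 986730 CPM in control 2 and 1014120 CPM in CML 2. The steps between low values gave an estimated 16161801 to 18954731 reads per library, so that 1 read was worth 0.0535 to 0.0622 CPM. The lineage of the cells was checked against marker genes. VIM (4014 to 4243 CPM), CD44 (803 to 885 CPM), KRT18 (310 to 355 CPM) and KRT8 (183 to 239 CPM) were high in all libraries, whereas the progesterone receptor PGR (at most 0.114 CPM), the epithelial cadherin CDH1 (0.311 to 0.954 CPM) and the leukocyte marker PTPRC (0.116 to 0.650 CPM) were close to 0. The endothelial gene PECAM1 was at 2.36 to 3.84 CPM, and ESR1, CDH5 and ADIPOQ had no row in the table.

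The respiratory chain sits in the inner mitochondrial membrane. Complex I takes electrons from NADH and complex II takes them from succinate. Complex III passes them on to cytochrome c, and complex IV passes them to oxygen. Complexes I, III and IV pump protons, and complex V, the ATP synthase, uses the returning protons to make ATP. Complexes I, III, IV and V are built from subunits of both genomes, whereas complex II is entirely nuclear-encoded. The mitochondrial subunits are transcribed inside the organelle as long polycistronic RNAs that are cut into mRNAs, rRNAs and tRNAs. MT-ND6 lies on the opposite strand from the other mRNAs. Nuclear subunits are transcribed gene by gene, translated in the cytosol and imported.

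The open reading frames of MT-ATP8 and MT-ATP6, which encode the membrane subunits A6L and a of ATP synthase, overlap on the mitochondrial genome. The MT-ATP8 sequence is shown because this mRNA had the most negative log2 fold change of all members. It lies at chrM:8366-8572 on the plus strand of GRCh38, is 207 bases long and shares its last 46 bases (22.2%), printed in capitals, with the start of MT-ATP6 (chrM:8527-9207). Reads that fall in the shared stretch cannot be given to either gene by sequence alone.
MT-ATP8: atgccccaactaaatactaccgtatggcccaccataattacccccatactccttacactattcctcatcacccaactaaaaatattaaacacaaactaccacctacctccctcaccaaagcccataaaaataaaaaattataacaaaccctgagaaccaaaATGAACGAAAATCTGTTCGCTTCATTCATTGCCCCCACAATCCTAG
MT-ND4L and MT-ND4 share 7 bases (chrM:10760-10766), and MT-ATP6 and MT-CO3 share 1. Transcript sequences were taken from the GENCODE set for the nuclear and mitochondrial genomes and positions from RefSeq.

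All 13 mRNAs of the mitochondrial genome had a lower mean in CML-exposed than in control cells, and none passed the test. The 13 mRNAs summed to 17196, 17548, 18323 and 20302 CPM in control libraries 1 to 4 and to 16948, 15459, 15719 and 18438 CPM in CML libraries 1 to 4. The highest sum was in control 4 and the lowest in CML 2, and the groups overlapped, since CML 4 lay above 3 of the 4 controls. The means were 18342 ± 1389 CPM in control and 16641 ± 1363 CPM in CML-exposed cells (SD, n = 4), a difference of -9.27% that is close to the SD of either group. As a share of each library, mitochondrial mRNA made up 1.84% ± 0.120 in control and 1.65% ± 0.140 in CML-exposed cells (SD, n = 4). The log2 fold changes of the 13 mRNAs, computed on log2(CPM + 1), had a median of -0.13 and ran from -0.33 for MT-ATP8 to -0.02 for MT-ND3. Over all 17649 genes the median was 0.01, with 42.2% of genes lower and 53.5% higher in CML-exposed cells. The 13 values are not independent, since these mRNAs, apart from the opposite-strand MT-ND6, share their transcripts, and most moved together from library to library. From control 1 to control 4, most rose by 0.17 (MT-CO3) to 0.33 (MT-ND4) on the log2 scale. MT-ATP8 (-0.32), MT-ND3 (-0.05), MT-ND4L (0.04) and MT-ND6 (0.06) did not follow.

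**Figure D1:**
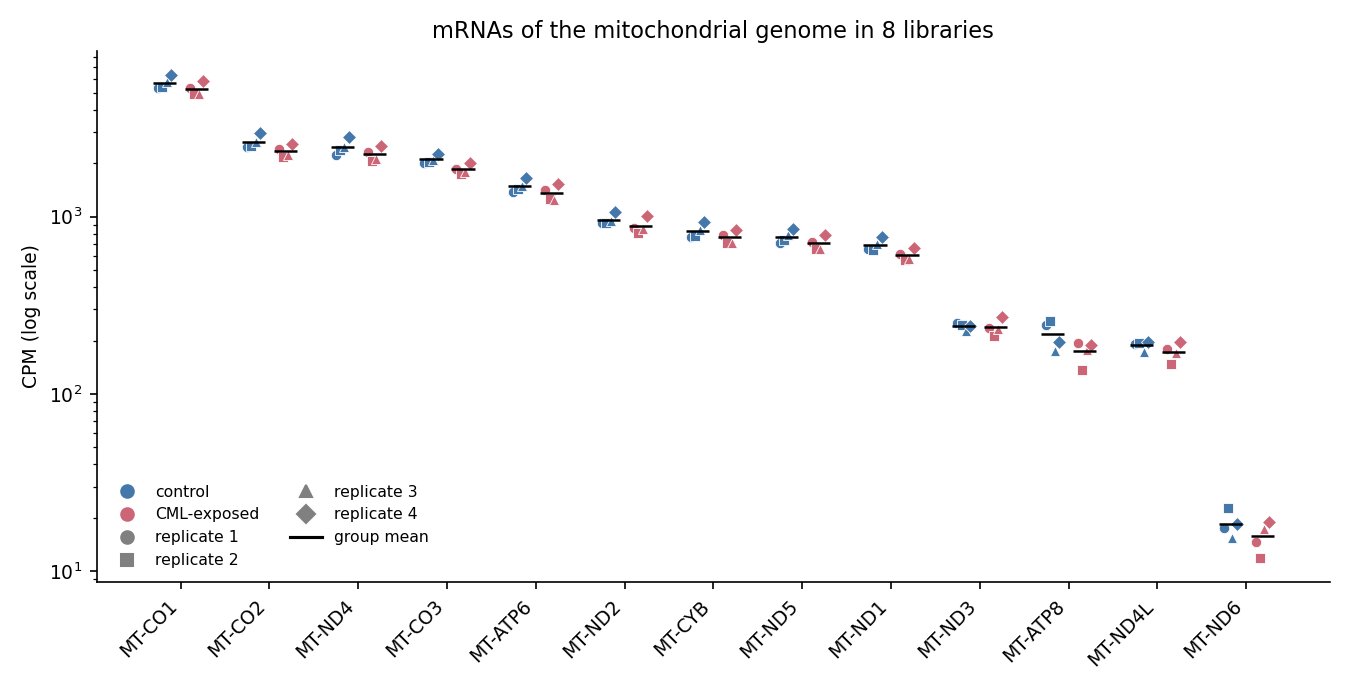
CPM of the 13 mitochondrial mRNAs on a log axis, ordered by control mean, with 1 point per library (colour for group, shape for replicate number) and a bar for each group mean. The points of replicate 4 are the highest of their group for MT-CO1, MT-CO2, MT-CO3, MT-ND4, MT-ATP6, MT-ND2, MT-CYB, MT-ND5 and MT-ND1, and the 2 groups overlap for every mRNA.

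Complex I contains 7 mitochondrial subunits, all of them in its membrane arm. MT-ND1, the subunit next to the quinone site, was at 659, 649, 698 and 765 CPM in control and at 614, 566, 577 and 669 CPM in CML-exposed cells. CML 4 alone lay within the control range. The means were 693 ± 52.6 and 607 ± 46.4 CPM (SD, n = 4), with a log2 fold change of -0.19 ± 0.07 (SE), a limma adjusted p = 0.574 and a 2-sided exact permutation p = 0.0857. MT-ND4, which forms part of the proton-pumping arm, was at 2241, 2383, 2483 and 2820 CPM in control and at 2319, 2072, 2113 and 2503 CPM in CML-exposed cells. MT-ND2 and MT-ND5, the other large subunits of that arm, had control means of 962 ± 71.6 and 772 ± 64.1 CPM and CML means of 886 ± 87.6 and 706 ± 62.7 CPM (SD, n = 4). The small subunit MT-ND3 had the log2 fold change nearest to 0. It was at 251, 245, 225 and 243 CPM in control and at 235, 212, 234 and 270 CPM in CML-exposed cells. Leaving out CML 2 turned its direction, with a log2 fold change of 0.03 in place of -0.02. MT-ND4L (control 189 ± 10.95, CML 173 ± 20.1 CPM) and MT-ND6 (control 18.5 ± 3.01, CML 15.7 ± 3.10 CPM; SD, n = 4) had overlapping groups too.

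MT-CYB, the cytochrome b subunit of complex III, was at 769, 779, 842 and 933 CPM in control and at 790, 709, 714 and 845 CPM in CML-exposed cells. Controls 1 to 3 lay inside the CML range. The log2 fold change was -0.12 ± 0.08 (SE).

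MT-CO1, MT-CO2 and MT-CO3 form the catalytic core of complex IV. MT-CO3 had the smallest unadjusted p of the mitochondrial mRNAs. It was at 2021, 2044, 2097 and 2267 CPM in control and at 1855, 1753, 1791 and 2021 CPM in CML-exposed cells, so that CML 4 reached the level of control 1 and the other CML libraries lay below all controls. Its means were 2107 ± 111 and 1855 ± 118 CPM (SD, n = 4), with a log2 fold change of -0.18 ± 0.06 (SE), a limma adjusted p = 0.489 and an exact permutation p = 0.0571. MT-CO2 was at 2467, 2493, 2647 and 2971 CPM in control and at 2423, 2179, 2234 and 2566 CPM in CML-exposed cells. MT-CO1 was the most abundant member in CPM, at 5325, 5390, 5751 and 6311 CPM in control and 5326, 4939, 4936 and 5835 CPM in CML-exposed cells, and it was the gene of rank 5 in each of the 8 libraries.

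The mitochondrial subunits of complex V were both lower in mean. MT-ATP8 was at 246, 259, 174 and 196 CPM in control and at 195, 136, 176 and 188 CPM in CML-exposed cells. The controls were spread widely, with controls 1 and 2 well above the CML range, control 4 just above it and control 3 inside it. The log2 fold change of -0.33 ± 0.16 (SE) had an adjusted p = 0.738 (limma). MT-ATP6 was at 1385, 1432, 1482 and 1658 CPM in control and at 1413, 1261, 1246 and 1522 CPM in CML-exposed cells, with a log2 fold change of -0.13 ± 0.08 (SE). MT-ATP8 followed another order among the controls than MT-ATP6, although the coding stretches overlap.

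The composition of the mitochondrial mRNA pool was close in both groups. MT-CO1 made up 31.0% ± 0.278 of the summed mitochondrial mRNA in control and 31.6% ± 0.256 in CML-exposed cells, MT-CO2 14.4% ± 0.1799 and 14.1% ± 0.166, MT-CO3 11.5% ± 0.257 and 11.2% ± 0.241, and MT-ND1 3.78% ± 0.0585 and 3.65% ± 0.0231 (SD, n = 4). Every control share of MT-CO1 was below every CML share, but only just, with 31.39% in control 3 and 31.40% in CML 3. Every control share of MT-ND1 was above every CML share. The shares of the other mRNAs overlapped between the groups, and the separation was not tested. Such shares are bound to each other, since an increase in 1 mRNA lowers the shares of the others. The mitochondrial rRNAs MT-RNR1 and MT-RNR2, cut from the same precursors, summed to 3838 ± 228 CPM in control and 3645 ± 261 CPM in CML-exposed cells (SD, n = 4), which is -5.03%, and neither passed the test.

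Per kilobase of transcript, the mitochondrial mRNAs lay above all nuclear subunits in control cells, except MT-ND6, which lay within the nuclear range. In control cells MT-CO2 stood at 3867 ± 339, MT-CO1 at 3693 ± 293, MT-CO3 at 2688 ± 142 and MT-ATP6 at 2187 ± 176 CPM per kilobase (SD, n = 4). Within each control library MT-CO2 lay above MT-CO1, by 154, 149, 140 and 252 CPM per kilobase in controls 1 to 4. In CML libraries 1 to 4 the difference was 88.6, -17.4, 65.6 and -33.1 CPM per kilobase, below all controls. This difference was examined after the values were seen and was not tested. MT-ND6, the opposite-strand mRNA, was the lowest at 35.3 CPM per kilobase. The median over the 13 mitochondrial mRNAs was 924 CPM per kilobase and that over the 74 nuclear subunits with a transcript length 45.8 CPM per kilobase, a ratio of 20.2. The length is that of the Ensembl canonical transcript, which need not be the main form in these cells. The nuclear subunits ran from 3.41 CPM per kilobase for NDUFA9, an accessory subunit of complex I whose canonical transcript is long (8356 bases), to 271 CPM per kilobase for ATP5F1B, the catalytic subunit of ATP synthase.

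The nuclear genome also holds copies of mitochondrial genes that can compete for the same reads. These copies were looked up after the values of the members were seen. MTCO1P12 had 86.7 ± 4.81 CPM in control and 75.7 ± 7.87 CPM in CML-exposed cells, MTATP6P1 had 129 ± 6.56 and 113 ± 13.02 CPM, and MTND2P28 had 14.5 ± 0.782 and 12.7 ± 1.96 CPM (SD, n = 4). All were lower in mean, like the mRNAs that they resemble. The estimated reads were not whole numbers in 7 libraries for MT-CO1, MTCO1P12, MT-ATP6 and MTATP6P1, and in 6 for MT-ND2 and MTND2P28. The split of reads between each mRNA and its copy is therefore uncertain, and how the counting divided them is not given in the sources used here.

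Among the 75 nuclear subunits, 56 were higher and 19 lower in mean in CML-exposed cells, with a median log2 fold change of 0.03, and none passed the test. Of all genes, 53.5% were higher, with a median of 0.01. They include 764 rows at 0 in all libraries, which are neither higher nor lower. The same share is the background to the counts by complex, motif and list below. Their CPM summed to 5084, 4991, 4827 and 4840 in control and to 4999, 5022, 5032 and 5004 in CML-exposed cells. The CML libraries lay close together within the wider control range. The means were 4935 ± 124 and 5014 ± 15.5 CPM (SD, n = 4), a difference of 1.61%. With the nuclear sum nearly level and the mitochondrial sum lower, the 2 genomes differed in the sign of their medians under every alternative that was run, but the difference between the genomes was not tested.

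**Figure D2:**
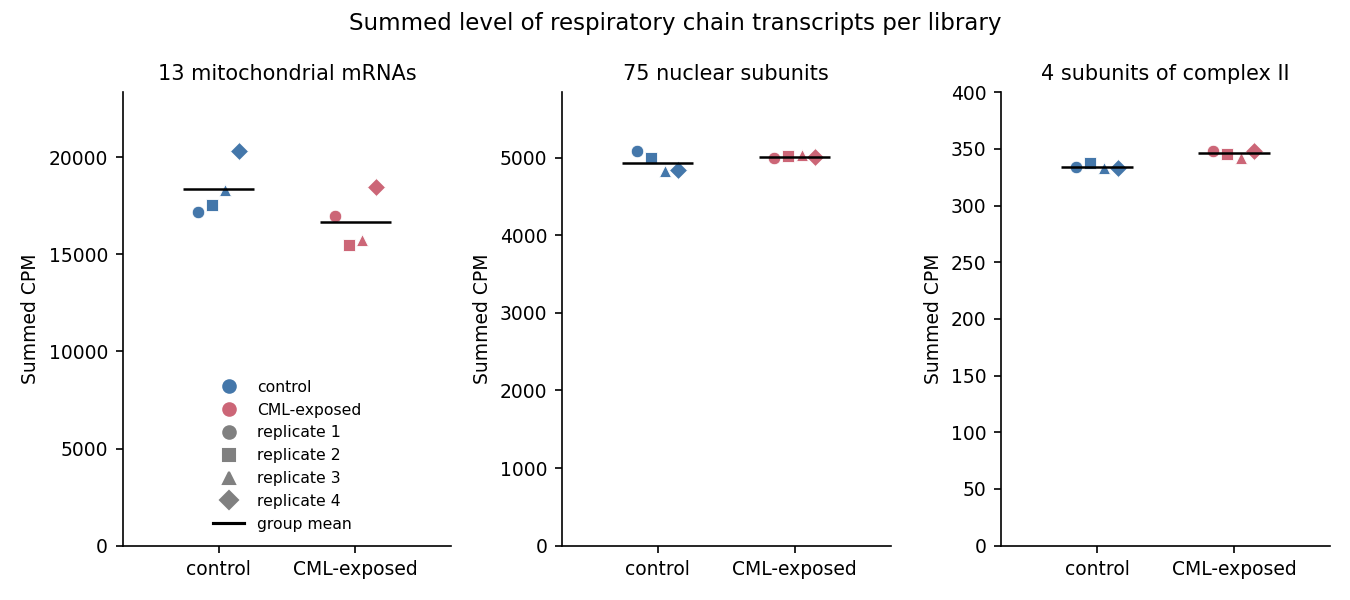
Summed CPM per library of the 13 mitochondrial mRNAs, the 75 nuclear subunits and the 4 nuclear subunits of complex II, with axes from 0, 1 point per library and a bar for each group mean. The mitochondrial groups overlap (15459 to 20302 CPM over the 8 libraries), the nuclear groups overlap, and the complex II groups do not. No sum was tested.

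Over all 90 members, 0 passed an FDR of 0.3, the threshold used in the study, against 0.895% of all genes, and 0 passed an FDR of 0.05. An unadjusted p below 0.05 was reached by 8 members, 4 higher and 4 lower, against 7.66% of all genes. The higher ones were ATP5F1B, ATP5MF-PTCD1, SDHB and NDUFA8, and the lower ones were COX6B1, NDUFB3, MT-CO3 and MT-ND1. The groups did not overlap for 4 members that were higher in every CML library (against 2.5% of all genes) and for 2 that were lower in every CML library (against 1.27%). As shares of the 90 members these are 8.89% for an unadjusted p below 0.05, 4.44% for the higher and 2.22% for the lower members without overlap.

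**Figure D3:**
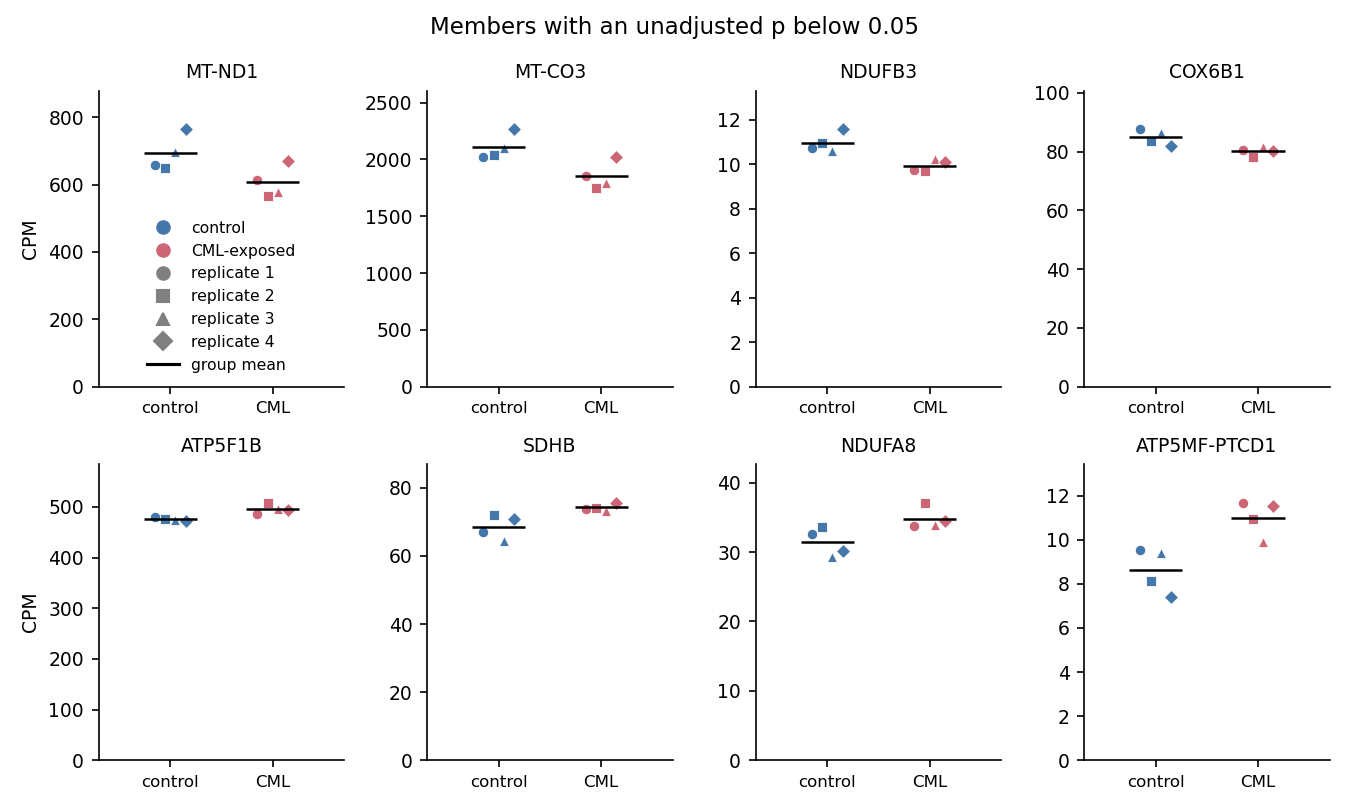
CPM by library of the 8 members with an unadjusted limma p below 0.05, axes from 0, 1 point per library and a bar for each group mean. MT-ND1 and MT-CO3 overlap through CML 4, while the groups of NDUFB3, COX6B1, ATP5F1B, SDHB, NDUFA8 and ATP5MF-PTCD1 are separate but close.

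Nuclear subunits of complex I had a median log2 fold change of 0.03, with 26 of 36 higher in mean. The 7 core subunits, which carry the flavin, the iron-sulfur clusters and the electron path, had a median of 0.04, and the 29 accessory subunits a median of 0.03. The accessory subunit NDUFB3 was at 10.7, 10.9, 10.6 and 11.6 CPM in control and at 9.73, 9.68, 10.2 and 10.1 CPM in CML-exposed cells. All CML libraries lay below all controls, by a gap smaller than the range of either group. The log2 fold change was -0.13 ± 0.04 (SE), with a limma adjusted p = 0.498 and an exact permutation p = 0.0286, the smallest that 4 against 4 libraries allow. NDUFA8, an accessory subunit with twin CHCH motifs, was at 32.7, 33.6, 29.3 and 30.1 CPM in control and at 33.8, 37.1, 33.9 and 34.5 CPM in CML-exposed cells. Its lowest CML library lay just above its highest control. The log2 fold change was 0.14 ± 0.05 (SE), with an adjusted p = 0.559 (limma). The accessory subunit NDUFA2 was at 17.7, 15.3, 14.9 and 17.0 CPM in control and at 15.4, 13.7, 16.0 and 14.9 CPM in CML-exposed cells, with overlapping groups. NDUFS1, the largest iron-sulfur subunit and the most abundant nuclear complex I transcript in CPM, was at 115, 119, 115 and 128 CPM in control and at 118, 124, 123 and 128 CPM in CML-exposed cells. NDUFS7, a core iron-sulfur subunit and the lowest in CPM, varied most within groups, at 7.81, 7.74, 5.02 and 4.16 CPM in control and 8.39, 6.26, 8.04 and 5.41 CPM in CML-exposed cells.

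Complex II, or succinate dehydrogenase, is also an enzyme of the tricarboxylic acid cycle. All 4 of its subunits were higher in mean, with a median log2 fold change of 0.04. Their sum was 334, 337, 333 and 333 CPM in control and 348, 346, 342 and 348 CPM in CML-exposed cells. Every CML library lay above every control, and the means of 334 ± 1.86 and 346 ± 2.68 CPM (SD, n = 4) differed by 3.44%. The sums of the other complexes overlapped between the groups for either genome, and no sum was tested. SDHB differed most in mean, by 8.27%, against 3.19% for SDHA, 2.19% for SDHD and 1.38% for SDHC. Only SDHB had groups that did not overlap. SDHB, the iron-sulfur subunit, was at 67.0, 71.9, 64.4 and 70.95 CPM in control and at 73.9, 74.1, 73.3 and 75.7 CPM in CML-exposed cells. The CML libraries lay in a narrow band above the highest control, and the log2 fold change was 0.11 ± 0.04 (SE) with a limma adjusted p = 0.489 and an exact permutation p = 0.0286. SDHA, the flavin-bearing catalytic subunit, was at 85.8, 84.4, 83.1 and 81.4 CPM in control and at 87.6, 88.4, 86.1 and 83.2 CPM in CML-exposed cells. Only CML 4 lay inside the control range. The membrane anchors SDHC (log2 fold change 0.02 ± 0.02, SE) and SDHD (0.03 ± 0.03) had overlapping groups. SDHC was lower in CML-exposed cells when libraries were centred on their median or quantile normalized, by less than 0.01 on the log2 scale.

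Complex III had 8 of 9 nuclear subunits higher in mean, with a median log2 fold change of 0.04. The core subunit UQCRC1 was at 123, 118, 130 and 122 CPM in control and at 128, 132, 126 and 124 CPM in CML-exposed cells. UQCRFS1, the Rieske iron-sulfur protein, was at 74.3, 76.3, 77.2 and 85.1 CPM in control and at 78.0, 81.3, 82.0 and 81.8 CPM in CML-exposed cells. Control 4 was the highest of all 8 libraries and the other controls lay below all CML libraries. The log2 fold change was 0.05 ± 0.04 (SE). Without control 4 UQCRFS1 passed the FDR of 0.3, as did 3.91% of all genes. The small subunit UQCR11 was at 21.4, 21.3, 16.1 and 18.0 CPM in control and at 22.4, 21.2, 21.3 and 17.6 CPM in CML-exposed cells.

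Complex IV had 6 of 11 nuclear subunits higher in mean and a median log2 fold change of 0.00. With GC content and length removed, 4 of 11 were higher and the median was -0.02. COX6B1, which faces the intermembrane space, was at 87.7, 83.8, 86.2 and 81.95 CPM in control and at 80.4, 78.2, 81.5 and 80.1 CPM in CML-exposed cells. CML 3 came just below control 4, and all CML libraries lay under all controls. The log2 fold change was -0.08 ± 0.02 (SE), with a limma adjusted p = 0.453 and an exact permutation p = 0.0286. Without control 4 COX6B1 passed the FDR of 0.3, as did 3.91% of all genes. The small subunit COX7B was at 63.6, 64.0, 60.4 and 63.4 CPM in control and at 60.3, 59.0, 59.7 and 62.6 CPM in CML-exposed cells. COX6A1, the most abundant in CPM, ran from 163 CPM in control 1 to 127 CPM in control 4, and its log2 fold change of 0.04 became negative without control 4. COX8A (log2 fold change 0.06 ± 0.09, SE) and COX5B (-0.08 ± 0.13), the least abundant in CPM, also had overlapping groups.

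Complex V had 12 of 15 nuclear subunits higher in mean, with a median log2 fold change of 0.03. ATP5F1B, the catalytic beta subunit and the most abundant nuclear member, had the smallest unadjusted p of all members. It was at 480, 477, 475 and 472 CPM in control and at 487, 509, 496 and 495 CPM in CML-exposed cells. All CML libraries lay above all controls. The means were 476 ± 3.18 and 497 ± 8.99 CPM (SD, n = 4), a difference of 4.32%, with a log2 fold change of 0.06 ± 0.02 (SE), a limma adjusted p = 0.381 and an exact permutation p = 0.0286. Its partner in the catalytic head, the alpha subunit ATP5F1A, was at 374, 381, 379 and 393 CPM in control and at 389, 395, 381 and 391 CPM in CML-exposed cells. ATP5MC1, which encodes the c subunit of the rotating ring, was at 37.4, 31.2, 33.4 and 36.4 CPM in control and at 31.5, 33.5, 32.4 and 32.9 CPM in CML-exposed cells. ATP5F1D, the delta subunit of the central stalk, was the least abundant nuclear subunit of complex V and spread from 13.6 CPM in control 1 to 6.84 CPM in control 4.

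The readthrough transcript ATP5MF-PTCD1, which joins the ATP synthase gene ATP5MF to its neighbour PTCD1 on chromosome 7, was at 9.54, 8.11, 9.38 and 7.41 CPM in control and at 11.7, 10.95, 9.88 and 11.5 CPM in CML-exposed cells. All CML libraries lay above all controls, and the log2 fold change of 0.33 ± 0.09 (SE) had an adjusted p = 0.422 (limma). It shares exons with both genes, so its reads are estimates, and ATP5MF itself had a log2 fold change of -0.05 ± 0.08 (SE). The pseudogene ATP5PBP5 stayed below 0.6 CPM in all libraries and was the only member with a mean under 1 CPM.

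**Figure D4:**
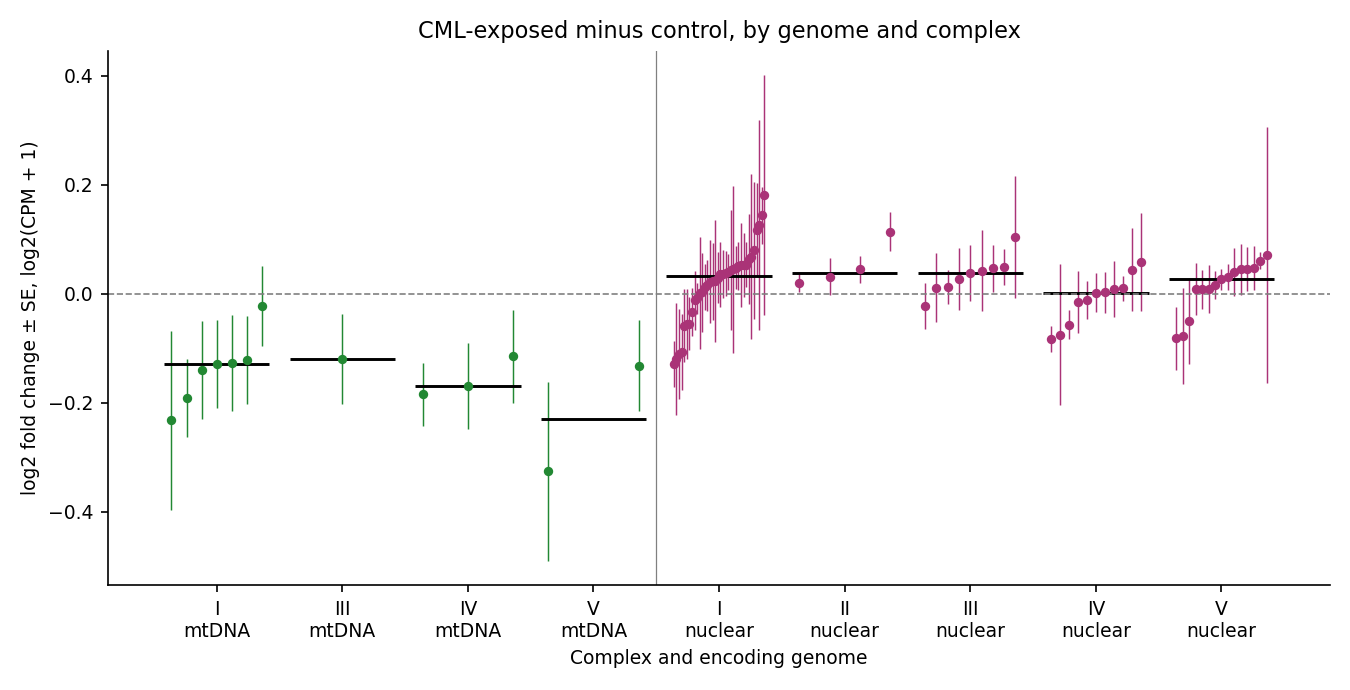
Log2 fold change (CML-exposed minus control, on log2(CPM + 1)) of the 13 mitochondrial and 75 nuclear members, sorted within complex, with SE bars and a black bar at each group's median. Every mitochondrial point is below 0, while the nuclear medians lie between 0.00 and 0.04.

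Promoters (250 bases before to 50 bases after the start of the gene) were matched in RefSeq (GRCh38.p14) for 62 of the 75 nuclear subunits. They were searched on both strands for the cores bound by factors known from nuclear respiratory genes, namely NRF1 (GCATGCGC), the ETS family with GABP (CCGGAAGT) and YY1 (AAGATGGC). The NRF1 core was found in 13 members (21.0%) and in 3.27% of all 27305 promoters. The ETS core was found in 9 members (14.5%) and in 4.44% of all promoters, and the YY1 core in 11 members (17.7%) and in 3.03% of all promoters. Members were then grouped by motif, after the values were seen. With the NRF1 core, 10 of 13 members were higher in mean in CML-exposed cells (median log2 fold change 0.03), and without it 35 of 49 (0.02). With the ETS core, 7 of 9 were higher (0.03), and without it 38 of 53 (0.02). With the YY1 core, 11 of 11 were higher (0.05), and without it 34 of 51 (0.01). A match of letters is a description and not a site of binding. The genes of a motif group are not replicates, and the difference between motif groups was not tested. The matched promoters of nuclear subunits whose groups did not overlap are printed here, with motif matches in capitals. These genes were picked by their values, and a link between motif and direction was not tested.
NDUFA8 (higher, chr9:122159730-122160029, minus strand): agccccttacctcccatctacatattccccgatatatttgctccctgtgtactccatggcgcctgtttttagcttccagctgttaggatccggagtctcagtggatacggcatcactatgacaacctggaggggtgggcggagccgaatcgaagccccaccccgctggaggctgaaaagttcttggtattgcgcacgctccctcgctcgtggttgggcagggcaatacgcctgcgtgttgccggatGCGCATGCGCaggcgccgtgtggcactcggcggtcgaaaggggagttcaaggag
SDHB (higher, chr1:17053983-17054282, minus strand): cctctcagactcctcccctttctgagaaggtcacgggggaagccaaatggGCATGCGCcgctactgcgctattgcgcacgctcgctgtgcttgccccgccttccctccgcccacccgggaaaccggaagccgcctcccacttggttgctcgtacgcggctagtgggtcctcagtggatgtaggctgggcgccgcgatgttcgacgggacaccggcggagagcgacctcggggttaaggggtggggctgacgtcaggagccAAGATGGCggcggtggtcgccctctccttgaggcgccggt
COX6B1 (lower, chr19:35648073-35648372, plus strand): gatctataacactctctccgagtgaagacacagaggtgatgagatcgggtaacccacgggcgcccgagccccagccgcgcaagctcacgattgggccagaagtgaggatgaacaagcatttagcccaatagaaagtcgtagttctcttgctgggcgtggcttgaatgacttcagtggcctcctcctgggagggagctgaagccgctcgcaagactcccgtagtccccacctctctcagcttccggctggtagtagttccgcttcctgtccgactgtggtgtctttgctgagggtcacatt
NDUFB3 (lower, chr2:201071751-201072050, plus strand): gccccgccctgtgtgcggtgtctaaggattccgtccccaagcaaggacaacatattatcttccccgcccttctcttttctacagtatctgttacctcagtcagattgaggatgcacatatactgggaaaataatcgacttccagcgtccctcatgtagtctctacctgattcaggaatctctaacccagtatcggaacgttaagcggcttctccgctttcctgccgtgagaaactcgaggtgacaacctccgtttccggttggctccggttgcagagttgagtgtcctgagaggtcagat
NDUFA8 held the NRF1 core on both strands in an overlapping match around the start, SDHB held 1 NRF1 and 1 YY1 core, and the windows of COX6B1 and NDUFB3 held none of the 3 motifs. ATP5F1B, which was also higher in every CML library, had no matched promoter.

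The level of the nuclear subunits followed the GC content of their transcripts within single libraries. Across 74 nuclear members, the deviation of a library from the mean of all 8 correlated with transcript GC content with a Pearson r of 0.541 in control 1, 0.306 in control 2, -0.187 in control 3 and -0.696 in control 4. In CML libraries 1 to 4, r was 0.421, 0.181, 0.451 and -0.602. The points are genes of the same library and are not independent replicates. Both libraries numbered 4 had the negative slope, which was also present over 12928 genes (r = -0.495 in control 4 and -0.452 in CML 4). ATP5F1D (69.5% GC) followed this slope, with 13.6 CPM in control 1 and 6.84 CPM in control 4, as did the complex I subunits NDUFB7 (29.9 to 16.9 CPM), NDUFS8 (40.8 to 25.5 CPM) and NDUFA11 (43.0 to 26.7 CPM). The median SD of log2 values among controls was 0.159 for the 25 nuclear members of highest GC content and 0.0724 for the 25 of lowest GC content. The mitochondrial mRNAs, at 39.6% to 47.7% GC, had their highest median deviation in control 4 (0.21) and were next highest in CML 4 (0.10). The fit described next removed GC content and transcript length together, so it does not give the part of GC content alone in single fold changes.

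**Figure D5:**
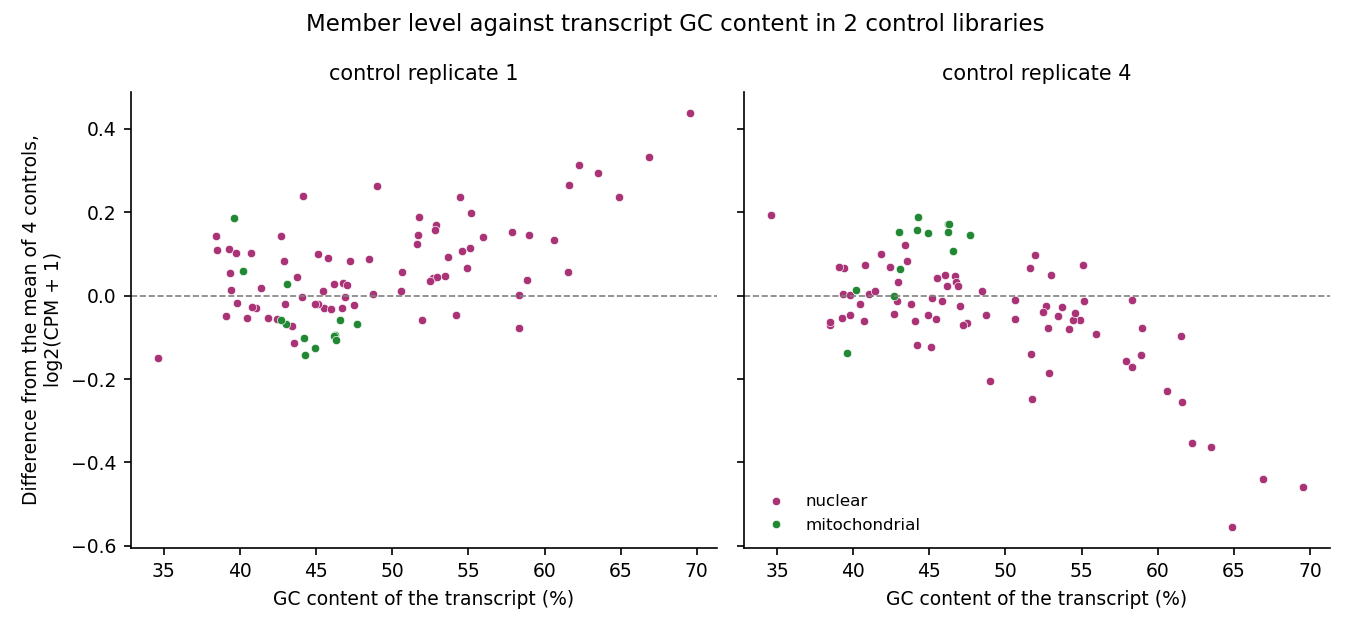
Difference of control 1 (left) and control 4 (right) from the mean of the 4 controls on log2(CPM + 1), against transcript GC content in percent, for 74 nuclear and 13 mitochondrial members. GC-rich nuclear members lie above 0 in control 1 and below 0 in control 4, whereas most mitochondrial mRNAs lie above 0 in control 4.

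With the dependence on GC content and length removed from each library, 14 of the 88 members with these properties passed the FDR of 0.3. All 10 that were lower were mitochondrial mRNAs, against 2.52% of all genes called lower in that fit, and the 4 that were higher were ATP5F1B, ATP5MF-PTCD1, NDUFA8 and SDHB, against 4.26% of all genes called higher. The 3 mitochondrial mRNAs that did not pass were MT-ND3, MT-ND4L and MT-ND6. The median log2 fold changes stayed at -0.14 for the mitochondrial mRNAs and 0.02 for the nuclear subunits. MT-CO3 had an adjusted p = 0.00480 and MT-ND1 an adjusted p = 0.0247 in this limma fit. These calls rest on a variance borrowed from other genes of like level. For MT-CO3 the SE was 0.03 with the borrowed variance and 0.05 from its own 8 values, and for MT-CO2 it was 0.05 and 0.08. With the variance of each gene alone, 4 of 88 members passed, against 4.53% of all genes, and MT-CO3 (limma adjusted p = 0.294) was the only mitochondrial mRNA. Without the trend of variance with level 3 of 88 passed, against 3.02% of all genes, again with MT-CO3 as the only mitochondrial mRNA. After the removal, only MT-CO3 of the 13 mitochondrial mRNAs had groups that did not overlap, with 2004, 2037, 2139 and 2255 CPM in control and 1857, 1770, 1801 and 1985 CPM in CML-exposed cells.

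Genes that build, express or regulate the respiratory chain were examined as further lists, and none of their members passed the FDR of 0.3 in the fit without GC removal. With GC content and length removed, 5 passed, in a fit that called 6.78% of all genes. The assembly factors FOXRED1 (limma adjusted p = 0.117) and NDUFAF3 (0.290), POLG (0.0966) and TFAM (0.289) were higher. The ribosomal protein MRPS28 (0.274) was lower. These were 2 of 46 assembly factors, 2 of 10 genes acting on the mitochondrial genome and 1 of 78 ribosomal proteins in that fit. Of 47 assembly factors, 27 were higher in mean, with a median log2 fold change of 0.02. FOXRED1, a complex I assembly factor, was at 40.9, 38.4, 40.3 and 39.2 CPM in control and at 45.9, 45.9, 45.04 and 40.1 CPM in CML-exposed cells, with CML 4 within the control range and a log2 fold change of 0.15 ± 0.05 (SE). SURF1, a complex IV assembly factor, had a log2 fold change of -0.13 ± 0.06 (SE). Of 10 genes that act in the replication or expression of the mitochondrial genome, 6 were higher in mean. POLG, the mitochondrial DNA polymerase, was at 62.4, 56.5, 64.3 and 59.0 CPM in control and at 66.1, 69.8, 66.7 and 65.1 CPM in CML-exposed cells, all above the controls, with a log2 fold change of 0.14 ± 0.04 (SE) and an adjusted p = 0.474 (limma). MTERF1, a mitochondrial termination factor, had a log2 fold change of -0.17 ± 0.08 (SE), and TFAM, which packages and transcribes the mitochondrial genome, had 0.11 ± 0.05.

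Of 78 mitochondrial ribosomal proteins, 46 were higher in mean, with a median log2 fold change of 0.01. The subunits with the smallest unadjusted p were MRPL49 (log2 fold change 0.06 ± 0.02, SE) and MRPS9 (0.17 ± 0.07). Of 8 nuclear regulators of mitochondrial biogenesis, 3 were higher and 5 lower in mean, and the coactivator PPARGC1B (-0.15 ± 0.13) and the GABP subunit GABPA (0.07 ± 0.08) had the smallest unadjusted p. The 8 further subunits and partners with other symbols had a median of 0.00. Among them, cytochrome c (CYCS), which carries electrons to complex IV, had a log2 fold change of 0.07 ± 0.03 (SE), and the ATP synthase inhibitor ATP5IF1 had 0.15 ± 0.09.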

How the data were processed

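RNA-Seq libraries of control (n = 4) and CML-exposed (n = 4) MDA-MB-231 cells were analyzed. The authors deposited CPM values, for which the submitters' processing notes name edgeR and hg38. The study describes TMM normalization factors for its RNA-Seq data. The aligner, counter, annotation and strandedness for this experiment are not given in the sources used here, and NextSeq and HiSeq are both named as the sequencer in the labels. The table held 17681 rows. Rows with the same symbol were averaged (17649 genes) and log2(CPM + 1) was computed, a scale on which fold changes of low genes are understated. No filter on low values was applied. Estimated reads (81.0% to 82.3% whole below 200 reads, within 0.02) were not used for a count test, since the rest were not whole, and intervals of counting error are not given. Groups were compared with limma 3.58.1 (R 4.3.3), with a variance trend, 2-sided, with Benjamini-Hochberg adjustment over all genes. GC content and length came from GENCODE transcripts lifted to GRCh37 and were fitted with splines per library over 12928 genes. The script was tested on simulated data.

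Named members were all mitochondrial mRNAs, the 3 nuclear subunits of smallest p and the most and least abundant of each complex, and members with an unadjusted p below 0.05. The further lists gave their 2 genes of smallest p. NDUFB7, NDUFS8 and NDUFA11 were named for their spread after their values were seen, as were ATP5MF, ATP5PBP5, NDUFA9, TFAM, NDUFAF3 and MRPS28. The members and lists were chosen with earlier results of these data known. Alternatives are given in the closing section. Plots used matplotlib 3.10.9 (Python 3.11.15). The exact permutation test enumerated all 70 labellings of the 8 libraries.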

Additional observations from a re-analysis of the deposited data

Results flagged for a closer look

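A sample was looked for that stood far from the other 3 of its group, in 94 groups of 4 values (CPM of named members, summed CPM and estimated reads). Chance alone would pick out about 4.7 such groups, and 2 were found. The summed CPM of complex II was 337.269 in control 2, above the other controls at 333 to 334 CPM, and still below every CML library. The estimated reads were 17729518 in control 4, against 16559914 to 16690410 in the other controls.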

How the results depend on the processing

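The number of members that passed the FDR of 0.3 was 0 of 90 and depended on the fit. It was 0 with a pseudocount of 0.1, without the variance trend, with rows kept separate, with libraries centred on their median, with quantile normalization and with CPM rescaled without the mitochondrial genome. It was 2 with a mean of at least 1 CPM (MT-CO3, MT-ND1, against 1.08% of all genes). With that filter and the removal of GC content and length together, it was 14 (against 6.78%). It was 0 to 2 with 1 library left out, where the 2 (COX6B1, UQCRFS1, against 3.91% of all genes) came without control 4. With 1 library left out, all genes called ran from 20 (without CML 2) to 690 (without control 4). Among alternatives chosen after seeing the data, it was 3 with GC content and length removed and no trend, 4 with the variance of each gene alone after that removal, and 2 with both libraries numbered 4 left out (MT-CO3, MT-ND2, against 1.82% of all genes).

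The replicate numbers come from the sample titles. Deviations of same-numbered libraries correlated at 0.199, -0.0303, -0.0645 and 0.334, and not every library correlated best with its own number, so the numbers were not taken to pair the samples. With the replicate number as a block, 1 member passed (MT-CO3, against 1.07% of all genes). With the block and the removal of GC content and length together, 15 passed (against 7.37% of all genes).

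The mitochondrial median stayed between -0.19 and -0.08 and the nuclear median between 0.00 and 0.03 under all alternatives, single libraries left out included. Single log2 fold changes changed sign for SDHC (-0.00017 centred, -0.0029 quantile normalized), MT-ND3 (0.031 without CML 2, the lowest -0.084), COX5B (0.014 without control 2, the lowest -0.16), COX6A1 (-0.018 without control 4, the highest 0.10) and ATP5F1D (-0.037 without CML 3, -0.0066 without control 3, -0.082 without control 4, the highest 0.22). The cause was not tested. Quantile normalization sets MT-CO1 to a log2 fold change of 0 by construction, since its rank was 5 in every library. With 4 libraries a group, differences of a few percent in single members are near the limit of what this spread can show.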
